A study of Arabidopsis thaliana with 12 samples.

Results

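The comparison described here set Arabidopsis thaliana seedlings with a dexamethasone-induced RNA interference (RNAi) construct against CHLD beside Col-0 wild-type seedlings that received the same steroid. It was made on all 6 arrays labelled CHLD dex or Col-0 dex, 3 biological replicates a side, of 12 arrays in the series, and 22746 probe sets were tested. The tested seedlings were in the Col-0 ecotype with reduced CHLD, and their Col-0 controls carried no label of a transgene. Both groups were 3 weeks old, had been sprayed with 20 µg/ml dexamethasone, and grew on soil at 23 °C with 10 h of light and 14 h of dark, following stratification for 3 days. The other 6 arrays of the series came from a β-estradiol-induced CHLM overexpression line and from Col-0, both treated with 20 µM β-estradiol. Green tissue was taken from every plant. The sources used here do not give the promoter that drives the RNAi construct, the number of independent lines or the number of plants behind each replicate. P-values therefore measure the spread between these samples, labelled as biological replicates.

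CHLD encodes a subunit of magnesium chelatase, the enzyme that inserts magnesium into protoporphyrin IX and so commits tetrapyrroles to chlorophyll and not to heme. The chelatase consists of the subunits CHLH, CHLI and CHLD. The next enzyme, the methyltransferase CHLM, acts on its product. Tetrapyrrole intermediates are photoreactive, and the state of the pathway in the plastid is known to influence nuclear genes for photosynthesis.

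The arrays were one-colour Affymetrix ATH1 chips, and each value is a log2 signal, so a difference of 1 is a 2-fold change. Medians of the 12 arrays lay between 6.26 and 6.32. Across probe sets, pairs of arrays were correlated at 0.995 to 0.996 within the CHLD RNAi group and at 0.9963 to 0.997 within the Col-0 dexamethasone group. Pairs that joined the groups were correlated at 0.9876 to 0.9903. CHLD had no probe set named here, so the depth of its knockdown was not analysed. Only 1535 of the 13355 genes with a probe set of their own carried a symbol in the reference, and genes without one are given by their locus code, with no role unless its synonyms name one. Levels are not compared between genes, since probe sets differ in brightness for the same amount of RNA. RNA came from whole green tissue, so fewer cells of a type and less RNA per cell cannot be told apart.

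A total of 3543 probe sets differed between CHLD RNAi and Col-0 under dexamethasone, which was 15.6% of those tested (limma, Benjamini-Hochberg adjusted p under 0.05). CHLD RNAi was higher at 1778 of them (7.82%) and lower at 1765 (7.76%). Most differences were small. Only 301 probe sets (1.32%) differed by at least 2-fold as well, 180 of them higher and 121 lower in CHLD RNAi. The median size of the log2 difference over all probe sets was 0.13, and the median signed difference was -0.007. Calls depended on signal. Of the 5690 dimmest probe sets, with mean signals up to 3.98, 1.60% were called, against 24.2% of the 5687 brightest, with means of 7.98 or more. The total fell to 2310 without Col-0 replicate 1 and to 2020 without Col-0 replicate 2, while the count at 2-fold or more stayed between 274 and 322 whichever array was left out.

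Of the pathway that the RNAi construct targets, 11 measured genes matched by name. The chelatase subunit CHLH was not among them, and other genes of the pathway may have gone uncounted. The counts below are for the matched genes only. CHLM gave 11.86, 11.55 and 11.55 in CHLD RNAi, against 11.55, 11.80 and 11.74 in Col-0, and these ranges overlapped (log2 difference -0.04, SE 0.112, limma adjusted p = 0.858). Of the 11 genes of chlorophyll and tetrapyrrole synthesis, 0 rose and 1 fell, with a median log2 difference of 0.01, and for a list this short that is near the 15.6% called among all probe sets. The one that fell was PORB, a light-dependent protochlorophyllide reductase that works after CHLM. Its signal was 12.45, 12.54 and 12.53 in CHLD RNAi and 12.83, 12.70 and 12.88 in Col-0 (log2 difference -0.30, SE 0.0893, limma adjusted p = 0.0455). The groups did not overlap, but this call ended whichever of the 6 arrays was left out, with adjusted p up to 0.151. CHLI2, a minor copy of the CHLI subunit of the chelatase, was singled out after its values were seen. It stood at 9.43, 9.19 and 9.15 in CHLD RNAi and at 8.96, 9.0 and 8.82 in Col-0, a log2 difference of 0.33 (SE 0.102) that did not pass (adjusted p = 0.0513). The other members, from HEMA2 and HEMA3 at the start of the pathway to HEMB1, HEME1 and HEME2 in its common part, lay between -0.21 and 0.19, and none passed.

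None of the nuclear genes of the photosynthetic apparatus that matched a list by name passed the test. Lists were matched on symbols and synonyms, so other genes of these families may have gone uncounted. Of 3 light-harvesting genes, 10 nuclear genes of photosystem and electron transport subunits and 4 Calvin cycle and photorespiration genes, 0 passed the threshold. Their medians were -0.04, 0.00 and -0.04. For lists this short, 0 is near the 15.6% called among all probe sets. LHCB4.1 and LHCB4.2, antenna proteins of photosystem II, averaged 13.90 ± 0.09 and 13.76 ± 0.03 in CHLD RNAi and 13.94 ± 0.05 and 13.85 ± 0.04 in Col-0 (SD, n = 3 each). RCA, the activase of Rubisco, averaged 13.97 ± 0.12 in CHLD RNAi and 14.03 ± 0.03 in Col-0. These signals lay near the top of the scale, 14.49, where an array compresses differences. The same genes are the mesophyll markers, so both groups carried strong green-leaf signal. Of the markers of other cell types, those of seed, pollen and shoot meristem (OLEO3, AMS, CLV3 and UFO) averaged between 3.20 and 3.73 in both groups. The root marker PYK10, which seedling shoots also express, averaged 11.58 ± 0.21 in CHLD RNAi and 11.90 ± 0.16 in Col-0 (SD, n = 3 each), and did not pass (limma adjusted p = 0.102). Of 3 stomatal lineage genes 0 rose and 1 fell, beside 7.82% higher and 7.76% lower among all probe sets. The fall was that of FMA, which ends guard cell division, at -0.38 (SE 0.108, limma adjusted p = 0.0381). That call ended without Col-0 replicate 2 or 3 or CHLD RNAi replicate 2 or 3, with adjusted p up to 0.135. HYH, a relative of the light-signalling factor HY5, rose to 4.41, 4.22 and 4.93 in CHLD RNAi, against 3.55, 3.52 and 3.47 in Col-0 (log2 difference 1.01, SE 0.152, limma adjusted p = 0.00169).

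Transcripts of the plastid genome moved in both directions, and within some complexes genes moved apart. Of 69 measured, 14 rose and 7 fell, with a median of 0.07, beside 7.82% higher and 7.76% lower among all probe sets. When single arrays were left out, between 11 and 14 rose and between 4 and 6 fell. psbD, which encodes the D2 protein of the photosystem II reaction centre, was at 8.47, 8.14 and 8.13 in CHLD RNAi, against 6.19, 6.43 and 6.36 in Col-0. The groups lay far apart, and the rise was 3.78-fold (log2 difference 1.92, SE 0.114, limma adjusted p = 2.01e-06). psbA, which encodes the partner protein D1, went the other way, with 9.67, 9.79 and 9.82 in CHLD RNAi and 10.63, 10.63 and 10.27 in Col-0 (log2 difference -0.75, SE 0.112, adjusted p = 0.00159). psbC, which encodes the antenna protein CP43 and is known to share a transcript with psbD, was at 9.50, 9.66 and 9.44 in CHLD RNAi and at 9.26, 8.93 and 9.43 in Col-0. Its difference of 0.33 (SE 0.127) did not pass (adjusted p = 0.112).

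Photosystem I and the NDH complex also held changes in both directions. In photosystem I, psaA gave 6.84, 6.61 and 6.62 in CHLD RNAi and 5.85, 5.63 and 6.07 in Col-0, a rise of 0.84 (SE 0.121, adjusted p = 0.0012). Its partner in the reaction centre, psaB, gave 12.43, 12.53 and 12.42 in CHLD RNAi and 12.88, 12.78 and 12.79 in Col-0, a log2 difference of -0.36 (SE 0.0863, adjusted p = 0.0178). The groups of both genes were separate, although the psaB call ended without Col-0 replicate 1 (adjusted p = 0.0649). In the NDH complex, which passes electrons around photosystem I, ndhG was at 5.92, 5.26 and 5.93 in CHLD RNAi, against 4.34, 3.89 and 4.78 in Col-0. It rose by 1.37 (SE 0.22, adjusted p = 0.00239), while ndhJ and ndhK stood at -0.41 and -0.39. The calls of ndhJ and ndhK ended without any of 3 and any of 5 arrays, with adjusted p up to 0.052 and 0.117. In the cytochrome b6f complex petA, which encodes cytochrome f, rose by 0.91 (SE 0.126) and petD by 0.41 (SE 0.0851), and petB was at -0.10 (adjusted p = 0.524). Of 4 subunits of the plastid RNA polymerase only rpoC1 passed, at 0.82 (SE 0.119), and the other 3 lay between 0.03 and 0.11. rbcL, the large subunit of Rubisco, rose by 0.51 (SE 0.1). The labelling kit primes on poly(A) tails, which few plastid transcripts carry, so these values are for the primed part of each transcript.

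**Figure D1:**
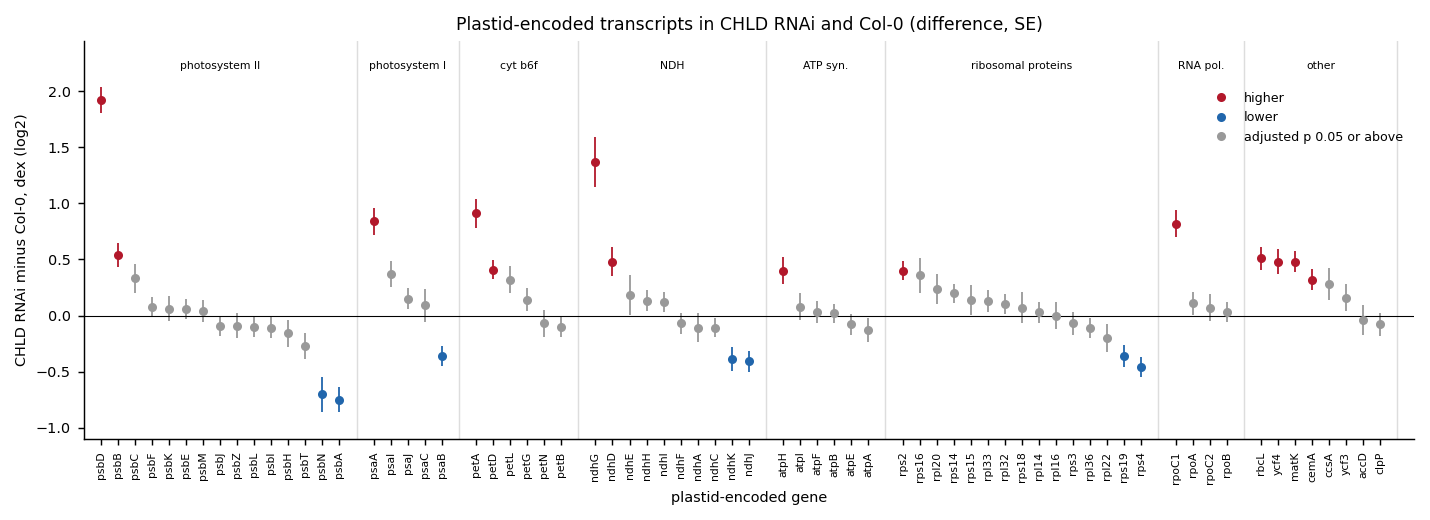
Log2 difference between CHLD RNAi and Col-0 under dexamethasone for each of 69 plastid-encoded genes, grouped by complex; points are differences, bars are limma standard errors, and colours mark genes past the threshold. psbD at 1.92 and ndhG at 1.37 stand above their groups, and psbA at -0.75 and psbN at -0.70 lie at the bottom.

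Among 16 measured transcripts of the mitochondrial genome, 4 rose and 0 fell, beside 7.82% higher and 7.76% lower among all probe sets. Of the 16, 14 had a difference above 0 (median 0.23), beside 6602 of 13355 genes with a probe set. ccb452, which takes part in cytochrome c maturation, was at 6.63, 6.74 and 6.41 in CHLD RNAi, against 5.88, 5.62 and 5.59 in Col-0 (log2 difference 0.90, SE 0.115, limma adjusted p = 6.07e-04). cox2, a subunit of cytochrome c oxidase, stood at 5.61, 5.65 and 5.74 in CHLD RNAi and 4.68, 5.21 and 5.18 in Col-0, a rise of 0.64 (SE 0.134). nad4L and nad1, subunits of respiratory complex I, rose by 0.63 and 0.42. nad1 is given by the brightest of its 7 probe sets, of which 4 passed, between 0.39 and 0.66, and 3 did not, between -0.06 and 0.20. When all 12 arrays shared one estimate of the spread, cox2 no longer passed (adjusted p = 0.248). That spread takes in Col-0 replicate 1 under estradiol, at 6.39 for cox2, where the other replicates gave 4.58 and 4.77. Among 18 nuclear factors for organelle RNA editing and thylakoid complex assembly, 3 rose and 1 fell, with a median of 0.13, and between 1 and 4 rose with single arrays left out. CRR41, known for assembly of the NDH complex, rose by 0.58 (SE 0.0997, adjusted p = 0.00341). The call of CRR21, another NDH-related factor, at 0.39, ended without any of 4 arrays (adjusted p up to 0.11). OTP84, a plastid RNA editing factor, was at -0.35 (adjusted p = 0.0352), a call that ended when any of 5 arrays was left out (adjusted p up to 0.111).

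Sugar transport and starch genes held the largest rise of any gene with a symbol. SWEET13, a sucrose exporter of the SWEET family, was at 9.13, 9.19 and 8.88 in CHLD RNAi, against 6.54, 5.88 and 5.94 in Col-0. All CHLD RNAi arrays were over 2 log2 units above the highest Col-0 array, and the rise was 7.71-fold (log2 difference 2.95, SE 0.161, limma adjusted p = 1.05e-06). The gene next to it in the RefSeq order, SWEET10, was near the bottom of the scale and did not pass (adjusted p = 0.401), with 3.83, 3.80 and 3.67 in CHLD RNAi and 3.69, 3.65 and 3.58 in Col-0. Of 28 listed genes 3 rose and 5 fell, with a median of 0.00, beside 7.82% higher and 7.76% lower among all probe sets. SWEET17, a vacuolar fructose transporter, rose by 0.60 (SE 0.0988), and APL3, a large subunit of the enzyme that makes ADP-glucose for starch, by 0.86 (SE 0.177). A second large subunit, APL4, went down, with 4.65, 5.10 and 4.50 in CHLD RNAi and 5.59, 5.55 and 5.47 in Col-0 (log2 difference -0.79, SE 0.137, adjusted p = 0.00363). SWEET4 fell by 0.84 on the log2 scale (SE 0.143). TMT1 and TMT2, carriers that load sugars into the vacuole, were at -0.70 and -0.47 (adjusted p = 6.42e-04 and 0.0116). With one spread shared by 12 arrays the SWEET4 call was lost (adjusted p = 0.212). That spread takes in Col-0 replicate 1 under estradiol, at 8.05 for SWEET4, where the other replicates gave 5.86 and 5.90.

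Some genes of amino acid breakdown under carbon shortage fell. Of 9 measured, 0 rose and 3 fell, beside 7.82% higher and 7.76% lower among all probe sets. All 9 differences were below 0, beside 6723 of 13355 genes with a probe set, and the median was -0.30. BCAT4, at -0.17, is also on the list of glucosinolate synthesis and breakdown, and did not pass (limma adjusted p = 0.211). AT4G33150, the lysine-ketoglutarate reductase and saccharopine dehydrogenase that starts lysine breakdown, was at 6.81, 6.88 and 7.04 in CHLD RNAi and 8.69, 8.88 and 8.31 in Col-0. The groups were separate by over 1 log2 unit, and the difference was -1.72 (SE 0.136, limma adjusted p = 1.81e-05). MCCA, a subunit of methylcrotonyl-CoA carboxylase in leucine breakdown, fell by 0.67 (SE 0.119). IVD, the dehydrogenase before it in the same route, was at -0.50 (adjusted p = 0.0333), a call that ended when any of 5 arrays was left out (adjusted p up to 0.11). All 11 measured autophagy genes also had differences below 0, with 3 falls and a median of -0.19. ATG8F, a ubiquitin-like protein that coats the autophagosome, was at 10.21, 10.17 and 10.32 in CHLD RNAi and 10.86, 11.07 and 10.72 in Col-0 (log2 difference -0.65, SE 0.105, adjusted p = 0.00248). APG8H, of the same family, fell by 0.47 (SE 0.0859).

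The 3 clock genes that matched a list by name all fell, and other clock genes may have gone uncounted. COR27, a repressor in the evening part of the clock, was at 4.78, 4.92 and 5.11 in CHLD RNAi, against 6.21, 6.30 and 5.81 in Col-0 (log2 difference -1.17, SE 0.135, limma adjusted p = 2.95e-04). GI, which acts in the clock and in flowering, gave 8.5, 8.39 and 8.47 in CHLD RNAi and 9.37, 9.07 and 9.13 in Col-0 (-0.74, SE 0.1, adjusted p = 8.89e-04). TIC, a clock regulator, was at -0.44 (SE 0.0897). The sources used here do not give the hour of harvest. Of 17 auxin genes 0 rose and 2 fell, a share near the 7.76% lower among all probe sets. IAA29, an Aux/IAA repressor of auxin signalling, was at 4.66, 4.68 and 5.11 in CHLD RNAi and 7.14, 7.13 and 6.60 in Col-0, a 4.41-fold fall with no overlap (-2.14, SE 0.161, adjusted p = 1.29e-05). WES1, a GH3 enzyme that joins auxin to amino acids, gave 6.87, 6.99 and 7.15 in CHLD RNAi and 8.08, 8.18 and 8.17 in Col-0 (-1.14, SE 0.0969, adjusted p = 3.02e-05). The other 15 auxin genes lay between -0.41 and 0.28. Among 10 genes of gibberellin, cytokinin and ethylene response 1 rose and 2 fell, beside 7.82% higher and 7.76% lower among all probe sets. RR16, a response regulator of cytokinin signalling, rose by 0.83 (SE 0.116), and EIN3, a transcription factor of the ethylene response, fell by 0.41 (SE 0.0866). GID1A, a gibberellin receptor, was at -0.36, a call that ended without Col-0 replicate 2 or CHLD RNAi replicate 1 (adjusted p up to 0.0763).

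Jasmonate and defence genes held a few strong changes, and most did not pass, beside 15.6% called among all probe sets. JMT, which converts jasmonic acid to its methyl ester, was at 6.31, 5.85 and 6.47 in CHLD RNAi, against 3.82, 4.26 and 3.82 in Col-0. The Col-0 values were near the bottom of the scale, and the rise was 4.73-fold (log2 difference 2.24, SE 0.164, limma adjusted p = 1.06e-05). PDF1.4, a plant defensin, went down, with 4.26, 3.93 and 4.79 in CHLD RNAi and 5.72, 6.56 and 5.84 in Col-0 (-1.71, SE 0.233, adjusted p = 8.84e-04). JRG21, an oxygenase regulated by jasmonate, was at 7.20, 7.80 and 8.45 in CHLD RNAi and 8.45, 9.44 and 9.24 in Col-0, and replicate 3 of the line met the lowest Col-0 array. Its difference of -1.23 (SE 0.295, adjusted p = 0.0174) no longer passed without Col-0 replicate 2 or 3 or CHLD RNAi replicate 1 (adjusted p up to 0.0806). The other 9 of 12 jasmonate genes did not pass. Of 14 genes of salicylate and pathogen defence only WRKY53 passed, a transcription factor tied to senescence and defence. It stood at 8.32, 8.33 and 8.12 in CHLD RNAi and 7.30, 7.01 and 7.20 in Col-0 (1.09, SE 0.105, adjusted p = 7.99e-05). It was also the 1 gene of 5 that passed in the list of senescence and chlorophyll breakdown. All 5 differences on that list were above 0, beside 6602 of 13355 genes with a probe set. Of 10 U-box and F-box genes only PUB25, a ubiquitin ligase, rose, to 7.26, 7.37 and 7.07 in CHLD RNAi against 6.03, 5.89 and 5.59 in Col-0 (1.4, SE 0.125). PUB22 was at 5.11, 5.42 and 6.43 in CHLD RNAi and 4.84, 4.77 and 5.16 in Col-0, and did not pass (adjusted p = 0.0897).

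Part of the dehydration and cold list was lower in CHLD RNAi. Of 15 measured, 0 rose and 5 fell, with a median of -0.26, beside 7.82% higher and 7.76% lower among all probe sets. LTI30, a dehydrin, was at 6.93, 7.63 and 7.84 in CHLD RNAi, against 8.52, 9.38 and 9.75 in Col-0 (log2 difference -1.75, SE 0.287, limma adjusted p = 0.00259). HIS1-3, a linker histone induced by drought, was at 6.10, 7.38 and 6.72 in CHLD RNAi and 8.65, 8.46 and 7.96 in Col-0 (-1.62, SE 0.268, adjusted p = 0.00266). XERICO, a RING protein that promotes abscisic acid accumulation, gave 7.82, 7.87 and 8.08 in CHLD RNAi and 9.03, 9.05 and 8.87 in Col-0 (-1.06, SE 0.101). COR47, another dehydrin, was at -0.54 (SE 0.112), and COR27 is also on the list. COR15A and COR15B, cold-induced chloroplast proteins, stood at 0.16 and -0.25 and did not pass. The spread of LTI30 was wide (SD 0.48 in CHLD RNAi and 0.63 in Col-0). Its call held whichever of the 6 arrays was left out (limma adjusted p up to 0.0178). The call was lost when 12 arrays shared the spread (adjusted p = 0.0739), where Col-0 under estradiol had an SD of 1.69. None of 7 heat shock and protein folding genes passed.

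Of 7 flavonoid and anthocyanin genes 2 rose and 0 fell, beside 7.82% higher and 7.76% lower among all probe sets. The median of the 7 was 0.15. DFR, dihydroflavonol reductase, was at 7.10, 7.05 and 7.07 in CHLD RNAi, against 5.17, 5.18 and 6.15 in Col-0 (2.98-fold, log2 difference 1.57, SE 0.212, limma adjusted p = 8.33e-04). UF3GT, a glycosyltransferase of anthocyanins, gave 6.48, 6.85 and 6.44 in CHLD RNAi and 5.04, 5.24 and 5.78 in Col-0 (1.24, SE 0.175, adjusted p = 0.00109). Col-0 replicate 3 was the highest Col-0 array for both. The other 5, among them the flavonoid glycosyltransferases UGT78D1, UGT78D2 and UGT78D3, lay between -0.07 and 0.36 and did not pass. CHIL, a chalcone isomerase-like protein outside that list, was at 7.80, 8.53 and 7.77 in CHLD RNAi and 5.99, 5.91 and 6.16 in Col-0, a 4.04-fold rise (2.01, SE 0.176, adjusted p = 3.83e-05).

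**Figure D2:**
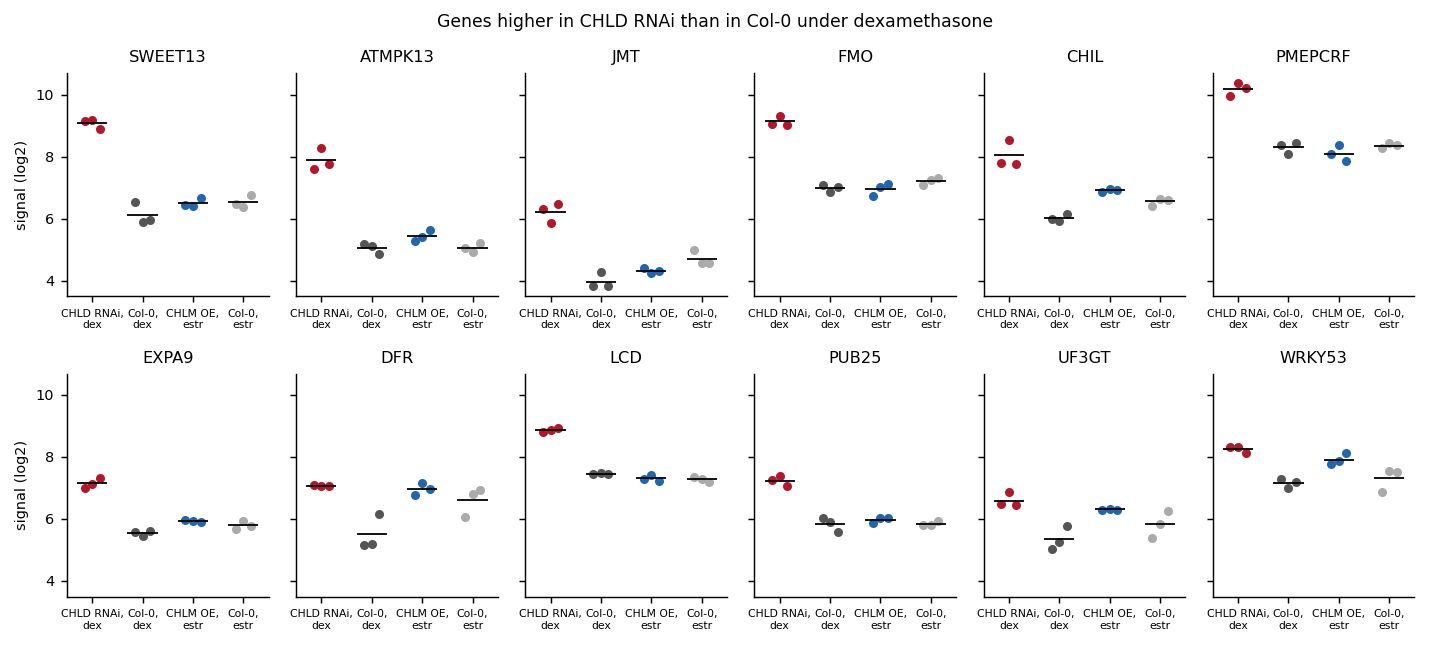
Log2 signal of 12 genes that were higher in CHLD RNAi than in Col-0 under dexamethasone, on each of 12 arrays; points are arrays, black lines are means of 3, and the CHLM overexpression (OE) line and its Col-0 control under estradiol (estr) are shown beside them. For SWEET13 the CHLD RNAi arrays lie between 8.88 and 9.19 and the other 9 arrays between 5.88 and 6.75.

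Cell wall genes contained both rises and falls, and the counts here stand beside 7.82% higher and 7.76% lower among all probe sets. Of 30 expansin and xyloglucan-modifying genes 5 rose and 3 fell, with a median of 0.05, and with single arrays left out between 3 and 5 rose and between 1 and 3 fell. The call of XTH29, at -0.57, ended without Col-0 replicate 1 or 2 (adjusted p up to 0.0654). EXPA9, an expansin that loosens the wall, gave 7.01, 7.12 and 7.31 in CHLD RNAi and 5.57, 5.45 and 5.61 in Col-0 (log2 difference 1.60, SE 0.101, limma adjusted p = 3.14e-06). EXGT-A3, a xyloglucan endotransglycosylase, rose by 0.53 (SE 0.095), and EXPA4, another expansin, by 0.53 (SE 0.104). EXLB1, an expansin-like protein, fell, with 7.55, 7.90 and 7.31 in CHLD RNAi and 8.95, 8.66 and 8.40 in Col-0 (-1.08, SE 0.163, adjusted p = 0.00161). Of 4 genes of pectin modification 2 rose, both pectin methylesterases. PMEPCRF was at 9.96, 10.36 and 10.21 in CHLD RNAi, against 8.38, 8.08 and 8.45 in Col-0, a 3.66-fold rise (1.87, SE 0.127, adjusted p = 6.08e-06). ATPMEPCRB rose by 1.12 (SE 0.134). All 7 measured tubulin genes had differences below 0, beside 6723 of 13355 genes with a probe set. Of the 7, 3 passed, and the median was -0.21. The call of TUB9, at -0.47, ended without Col-0 replicate 2 (adjusted p = 0.0549). TUB1, a beta-tubulin, was at 6.5, 6.24 and 6.38 in CHLD RNAi and 7.37, 7.40 and 7.23 in Col-0 (-0.96, SE 0.0984, adjusted p = 1.28e-04), and TUB6 fell by 0.46. WSD1, a wax ester synthase of the cuticle, rose by 0.87 (SE 0.111). Of 22 beta-glucosidase genes 2 rose and 4 fell, and between 0 and 2 rose with single arrays left out. The calls of BGLU47, at 0.62, and BGLU40, at 0.44, ended without any of 4 and any of 3 arrays (adjusted p up to 0.108 and 0.0671). BGLU45, known for acting on monolignol glucosides, was at 3.97, 4.20 and 4.05 in CHLD RNAi and 5.44, 5.15 and 4.84 in Col-0 (-1.07, SE 0.139), and BGLU46 was at -0.45 (SE 0.0861).

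Redox and detoxification genes that passed did so in both directions and at low amplitude. Of 23 measured, 3 rose and 4 fell, beside 7.82% higher and 7.76% lower among all probe sets. Their median was 0.01, and between 0 and 2 rose when single arrays were left out. ATHM2, a plastid thioredoxin of the m type, was at 11.51, 11.27 and 11.29 in CHLD RNAi and 11.92, 12.01 and 12.03 in Col-0 (log2 difference -0.63, SE 0.0959, limma adjusted p = 0.00175). GSTF4 and GSTU26, glutathione S-transferases, were at -0.59 and -0.53. NTRC, a plastid thioredoxin reductase, was at 0.37 (adjusted p = 0.0354), a call that ended when any of 5 arrays was left out (adjusted p up to 0.129). LCD, an L-cysteine desulfhydrase, lay outside this list. It gave 8.79, 8.87 and 8.92 in CHLD RNAi and 7.44, 7.48 and 7.43 in Col-0 (1.41, SE 0.0851, adjusted p = 2.16e-06). FMO, a flavin monooxygenase, gave 9.05, 9.32 and 9.02 in CHLD RNAi and 7.08, 6.86 and 7.02 in Col-0, a 4.42-fold rise (2.14, SE 0.107). ATMPK13, a mitogen-activated protein kinase, rose 7.13-fold, with 7.60, 8.26 and 7.77 in CHLD RNAi and 5.17, 5.11 and 4.85 in Col-0 (2.83, SE 0.156, adjusted p = 1.05e-06).

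Some genes of transcription and cell division rose, and their counts stand beside 7.82% higher and 7.76% lower among all probe sets. Among 9 genes of the silencing list, which were mostly subunits shared by RNA polymerases II, IV and V, 4 rose and 0 fell, with a median of 0.19. The number that rose was between 2 and 4 with single arrays left out: the NRPE7 call ended without Col-0 replicate 1 or 2, and that of NRPB12 without any of 5 arrays (adjusted p up to 0.129). NRPD7 gave 5.38, 5.31 and 5.21 in CHLD RNAi and 4.89, 4.66 and 4.89 in Col-0 (log2 difference 0.49, SE 0.0983, limma adjusted p = 0.00754), and NRPB6B rose by 0.43 (SE 0.0844). Of 14 genes of the cell cycle and DNA replication 3 rose and 0 fell, and the number that rose was between 1 and 3 when single arrays were left out. The kinase cdc2cAt rose by 0.68 (SE 0.11), and AUR1, a mitotic Aurora kinase, was at 0.48 (SE 0.114), a call that ended without Col-0 replicate 1 or 2 (adjusted p up to 0.0635). In the plot of list members the medians of the 16 lists run between -0.30 and 0.23, while single members reach 2.95 and -2.14.

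Counts for the remaining lists stand beside 7.82% higher and 7.76% lower among all probe sets. Of 37 genes on the nitrogen and sulfur list, which also holds the beta-glucosidases above, 3 rose and 6 fell, with a median of -0.11. That list includes 12 nitrate and peptide transporters, of which 0 rose and 2 fell, and AT1G33440 of that family was at 4.86, 5.10 and 5.05 in CHLD RNAi against 6.38, 5.64 and 6.24 in Col-0 (log2 difference -1.08, SE 0.165, limma adjusted p = 0.00176). APS3, an ATP sulfurylase of sulfate assimilation, rose by 0.57 (SE 0.108). UGT74B1, a glucosyltransferase of glucosinolate synthesis, rose by 0.43 (SE 0.0845), the 1 gene past the threshold of 4 on its list. Of 24 cytochrome P450 genes 0 rose and 3 fell, at -0.67 for CYP78A9, -0.47 for CYP71B29 and -0.46 for CYP71B5. The CYP78A9 call ended without any of 3 arrays (adjusted p up to 0.111) and that of CYP71B29 without Col-0 replicate 2 (0.0523). Of 7 peroxidases matched by name 0 rose and 2 fell, with a median of 0.02, and other peroxidases may have gone uncounted. The call of AT5G66390, at -0.63, ended without any of 4 arrays (adjusted p up to 0.145). PRX52 was at 4.07, 3.89 and 4.40 in CHLD RNAi and 4.57, 4.76 and 4.81 in Col-0 (-0.59, SE 0.129). Among 13 genes of endoplasmic reticulum stress 1 rose and 2 fell, and both counts reached 0 with single arrays left out. ATERDJ3B, at 0.37, and DER2.1, at -0.34, each lost the call without any of 3 arrays (adjusted p up to 0.0706 and 0.0875). BZIP28, a membrane-bound transcription factor of that response, was at -0.38 (SE 0.0888). Its call ended without Col-0 replicate 1 (adjusted p = 0.0578). None of 9 iron homeostasis genes passed.

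**Figure D3:**
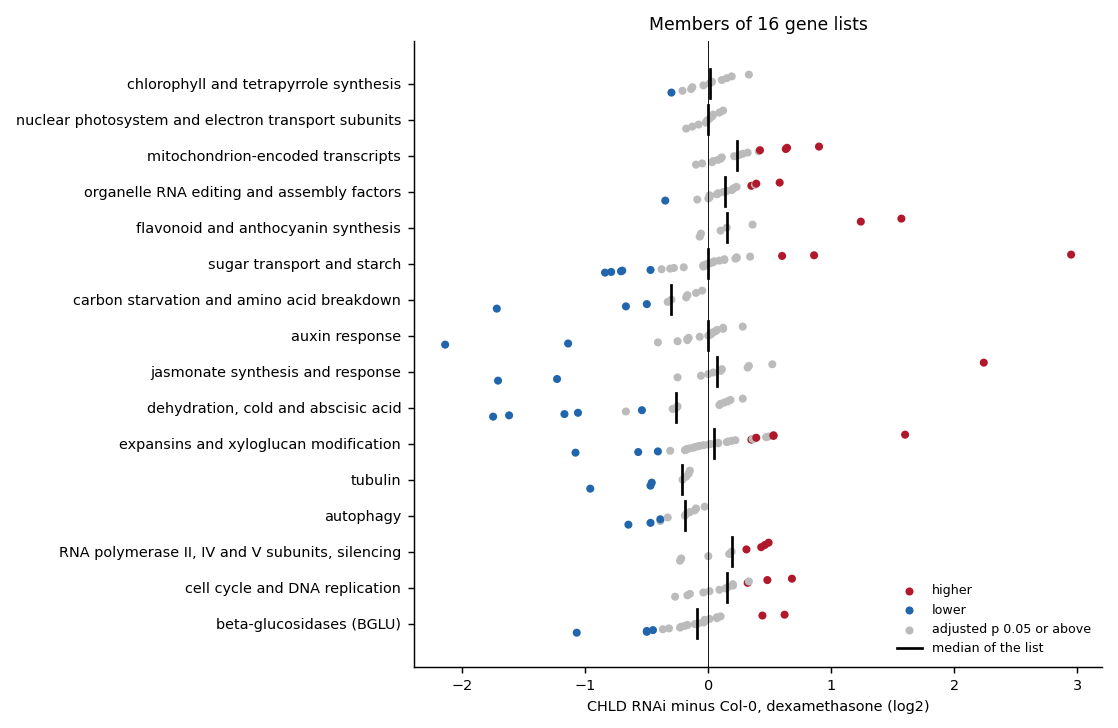
Log2 difference between CHLD RNAi and Col-0 under dexamethasone for each member of 16 gene lists; points are genes, red and blue mark members past the threshold, and the black line is the median of the list. Single genes such as SWEET13 (2.95), JMT (2.24) and IAA29 (-2.14) stand far from the medians of their lists.

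Among probe sets with 1 gene, the largest changes fell on genes without a symbol. AT1G26290 was at 8.40, 8.52 and 8.15 in CHLD RNAi, against 4.57, 4.75 and 4.65 in Col-0 (13-fold, log2 difference 3.70, SE 0.109, limma adjusted p = 9.79e-09). AT3G61490 was at 11.15, 11.28 and 10.68 in CHLD RNAi, against 7.04, 7.65 and 7.49 in Col-0 (12.5-fold, 3.64, SE 0.176). AT1G80280 and AT3G19430 rose 10.5-fold and 9.23-fold, and AT3G23450, AT3G14395, AT4G14815 and the pseudogene AT3G17050 rose between 6.87-fold and 7.84-fold. AT3G14395 averaged 3.44 in Col-0, near the bottom of the scale, so its 7.33-fold may be understated. At the other end AT2G15560 was at 5.46, 5.70 and 5.47 in CHLD RNAi, against 9.37, 9.20 and 9.28 in Col-0 (-3.74, SE 0.0987, adjusted p = 3.83e-09). AT4G29200 was at 3.93, 3.55 and 3.57 in CHLD RNAi and 7.22, 7.12 and 7.20 in Col-0 (-3.50, SE 0.112). The transcribed pseudogene AT2G12050 gave 3.87, 4.15 and 3.76 in CHLD RNAi, against 7.17, 7.17 and 6.92 in Col-0 (-3.16, SE 0.119). The pseudogene AT3G47320 was at 4.29, 3.52 and 3.85 in CHLD RNAi, against a mean of 6.61 in Col-0 (-2.72). These 3 were near the bottom of the scale in CHLD RNAi, where the array cannot show a lower level, so their falls may be understated. AT5G39520 stood at -2.44, AT3G28320 at -2.43, AT2G37130 at -2.24 and AT3G15450 at -2.19. Probe sets with no single gene in the annotation reached 4.0 and -3.62, and made up 147 of the 301 at 2-fold or more.

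The strongest changes were picked for their size, so smaller differences at their measured neighbours in the RefSeq gene order follow largely from that choice. Calls among these neighbours stand beside 15.6% called among all probe sets. The 10 largest rises had 10 measured immediate neighbours, of which 2 rose and 1 fell, between -0.33 and 1.28. AT1G80280 stood at 3.39 between PPR596 at 0.21 and AT1G80290 at -0.08, neither of which passed. The neighbour AT3G19440 of AT3G19430 was the exception in size, with a rise of 1.28 (adjusted p = 2.28e-05) beside one of 3.21. The 10 largest falls had 7 measured neighbours, between -0.18 and 0.42, of which 1 rose and 0 fell. AT3G47320 at -2.72 lay between AT3G47310 at 0.01 and AT3G47330 at 0.00.

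**Figure D4:**
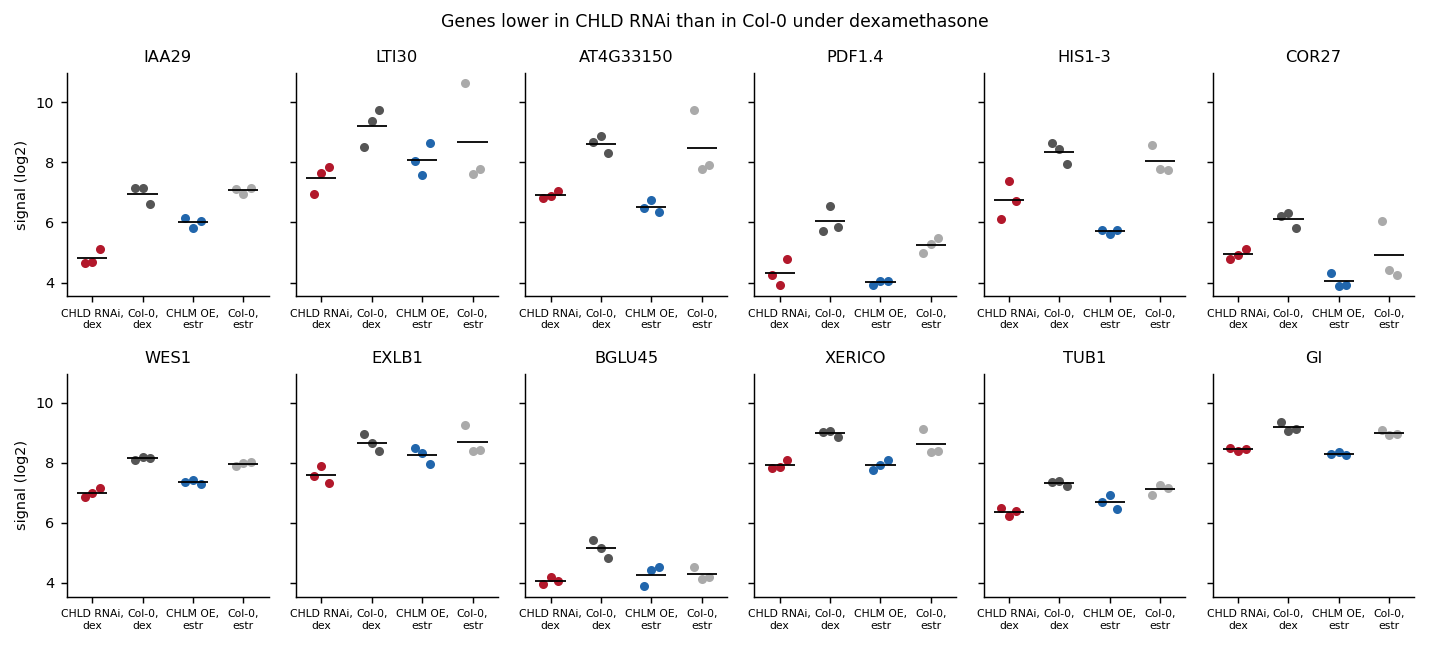
Log2 signal of 12 genes that were lower in CHLD RNAi than in Col-0 under dexamethasone, on each of 12 arrays; points are arrays, black lines are means of 3, with the CHLM overexpression (OE) line and its Col-0 control under estradiol (estr) beside them. For IAA29 the CHLD RNAi arrays lie between 4.66 and 5.11, and Col-0 replicate 1 under estradiol stands above its group for LTI30, AT4G33150 and COR27.

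The CHLM overexpression line with its own Col-0 control shares no array with the CHLD comparison, so its values are a separate measure of the same probe sets. One array there stood apart: Col-0 replicate 1 under estradiol was at 9.73 for AT4G33150, where the other replicates gave 7.79 and 7.91, and at 10.63 for LTI30, where they gave 7.61 and 7.79. The 121 probe sets that fell at least 2-fold in CHLD RNAi had a median log2 difference of -1.28 there and of -0.94 in the CHLM line, and 120 of them were below 0 in the CHLM line. The 180 that rose at least 2-fold had a median of 1.36 in CHLD RNAi and of 0.15 in the CHLM line, where 124 were above 0. Over all probe sets the median in the CHLM line was 0.020. Of the 121 falls 63 also passed the threshold downward in the CHLM comparison, and of the 180 rises 27 passed it upward, beside 1.85% lower and 1.91% higher among all probe sets there. Without Col-0 replicate 1 under estradiol, the medians in the CHLM line were -0.71 for the falls, with 114 below 0, and 0.08 for the rises, with 111 above 0.

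The difference between the effects was tested on all 12 arrays, as the CHLD effect minus the CHLM effect, and 256 probe sets (1.13%) passed. Of these 200 were more positive in CHLD RNAi and 56 more negative. Of the 180 rises of at least 2-fold 105 passed this test, and of the 121 falls 11 passed it. Without Col-0 replicate 1 under estradiol these counts were 130 and 26, and the total was 492. The rises and falls were picked on the CHLD difference, which is part of this test. Shares above 1.13% therefore follow in part from that choice. SWEET13 differed by 2.98 (SE 0.229, limma adjusted p = 3.23e-06), with CHLM line values of 6.44, 6.39 and 6.67 against 6.48, 6.36 and 6.75 in its Col-0. JMT differed by 2.63, FMO by 2.4, ATMPK13 by 2.46, PMEPCRF by 2.13, CHIL by 1.65, EXPA9 by 1.46, LCD by 1.37 and PUB25 by 1.27. Each of these held whichever of the 12 arrays was left out. In contrast AT3G23450 rose to 8.22, 8.13 and 8.34 in the CHLM line against 5.59, 5.54 and 5.42 in its Col-0, and its effects did not differ past the threshold (0.26, SE 0.211, adjusted p = 0.806). psbD likewise rose in both lines, by 1.92 in CHLD RNAi and by 2.03 in the CHLM line, with a difference of -0.11 (SE 0.234, adjusted p = 0.951). Among the falls AT2G15560 was at -3.74 in CHLD RNAi and -3.27 in the CHLM line (difference -0.47, SE 0.331, adjusted p = 0.751). For this gene Col-0 replicate 1 under estradiol was low, at 8.01, where the other replicates gave 9.32 and 8.94. GI was at -0.74 in CHLD RNAi and -0.69 in the CHLM line (difference -0.05, SE 0.132).

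A few falls were larger in CHLD RNAi. IAA29 fell by 2.14 there and by 1.05 in the CHLM line (difference -1.09, SE 0.218, limma adjusted p = 0.0235), a call that ended when any of 7 arrays was left out (adjusted p up to 0.0786). AT1G08230 was at -1.69 in CHLD RNAi and -0.54 in the CHLM line (difference -1.15, SE 0.17, adjusted p = 0.00238). AT4G33980 was at -1.65 in CHLD RNAi and -0.64 in the CHLM line (difference -1.02, SE 0.182, adjusted p = 0.0102). AT3G62950 gave 4.54, 3.54 and 4.72 in CHLD RNAi and 5.74, 6.05 and 5.93 in Col-0, while the CHLM line did not pass (0.33, adjusted p = 0.499). For DFR the difference of 1.22 (SE 0.349) did not pass (adjusted p = 0.159). Its signal was 6.76, 7.16 and 6.95 in the CHLM line and 6.05, 6.81 and 6.94 in Col-0 under estradiol, and these groups overlapped. The inducers differ between the lines, so line and steroid cannot be told apart in these differences.

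**Figure D5:**
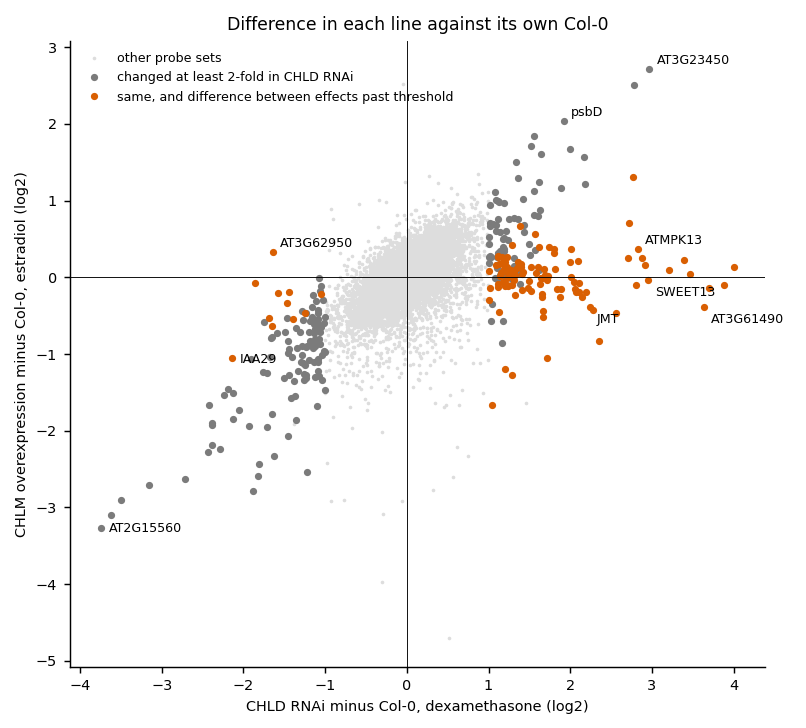
Log2 difference in CHLD RNAi against Col-0 under dexamethasone (horizontal) and in the CHLM overexpression line against Col-0 under estradiol (vertical), 1 point a probe set; grey points changed at least 2-fold in CHLD RNAi, and orange points also passed the test of the difference between the effects. Many rises lie near 0 on the vertical axis (median 0.15), and the falls lie mostly below 0 there (median -0.94).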

How the data were processed

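The deposited values were log2 signals, 1 column per array, made by the authors with Affymetrix Expression Console from 100 ng total RNA per array, per the labels and the submitters' processing notes. The sources used here do not give its version, summary method or normalization. The log base was taken as 2 because values ran from 2.39 to 14.49. The 63 AFFX control probe sets of 22809 were left out, and 0 columns of values went unused.

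The main test was limma 3.58.1 in R 4.3.3 (lmFit, eBayes) on the 6 dexamethasone arrays, with 4 residual and 7.02 prior degrees of freedom, no block and no filter. Two-sided p-values were adjusted across 22746 probe sets (Benjamini-Hochberg), with a threshold of 0.05. The CHLD effect minus the CHLM effect was fitted on 12 arrays with 8 residual degrees of freedom. No detection calls were used, and the number of arrays limits the precision.

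The platform annotation gave 1 gene to 13513 probe sets, several to 503 and none to 8730. RefSeq (TAIR10.1) matched 13436 of the first. A gene with several probe sets is given by the brightest over the 6 arrays. Lists were matched on symbols and synonyms, 40 of 46 had a measured member, and 19 name matches that belonged to other genes were left out, a choice made after seeing the data. Genes named are the 10 largest rises and falls without overlap between groups, up to 4 called members per list, the 5 largest of each sign of the difference between lines, and, added with values known, the largest changes among genes with a symbol and some further members of long lists. The members and lists were chosen with earlier results of these data known. Same-numbered replicates did not deviate together (correlations 0.06, -0.071 and 0.075), so the numbers were not taken to pair samples.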

Additional observations from a re-analysis of the deposited data

Results flagged for a closer look

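These named genes differed between the lines by the test of the CHLD effect minus the CHLM effect (limma on 12 arrays, adjusted p under 0.05). On the positive side the log2 differences between effects were 4.03 for AT3G61490, 3.84 for AT1G26290, 3.17 for AT1G80280, 3.12 for AT3G19430, 2.98 for SWEET13, 2.90 for AT4G14815, 2.63 for JMT, 2.62 for AT3G14395, 2.46 for ATMPK13 and 2.4 for FMO. PMEPCRF followed at 2.13, CHIL at 1.65, EXPA9 at 1.46, LCD at 1.37 and PUB25 at 1.27. On the negative side they were -1.02 for AT4G33980, -1.09 for IAA29, -1.15 for AT1G08230, -1.31 for AT5G02540 and -1.97 for AT3G62950. With 1 of the 12 arrays left out at a time, the calls of IAA29 and AT3G62950 ended in some cases, with adjusted p up to 0.0786 and 0.0834, and the others held. AT5G02540 was at -0.95 in CHLD RNAi and 0.36 in the CHLM line, and AT3G62950 at -1.64 in CHLD RNAi and 0.33 in the CHLM line, so both lay on opposite sides of 0, although neither passed in the CHLM line alone (adjusted p = 0.150 and 0.499). The inducers differ between the lines, and their part in these differences cannot be told apart from that of the transgenes.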

How the results depend on the processing

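The number of probe sets past the threshold was 3543, and ranged from 2020 to 3283 when 1 of the 6 arrays was left out. Those higher ranged from 1046 to 1667 and those lower from 974 to 1616, while the count at 2-fold or more ranged from 274 to 322. The total was 2822 when 12 arrays shared the spread, 3659 with a variance trend, 3587 after quantile normalization, 3502 after centring on medians and 3623 without the dimmest 25%. The share of higher calls lay between 48.9% and 50.4% under these. The test of the CHLD effect minus the CHLM effect gave 256, between 187 and 492 with single arrays left out; the 492 came without Col-0 replicate 1 under estradiol. With the replicate number as a block the totals were 3357 and 286, and 3132 of the 3357 were shared with the unblocked fit; the number did not pair the samples. Of 120 named genes past the threshold, 87 kept their call whichever array was left out, and 0 of the named genes past it changed direction under any alternative run. Probe sets at the bottom of the scale can show no lower level, and those near the top may be compressed.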
